A study of Homo sapiens with 24 samples.

Results

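The genes described here were 5 members of the NLRP and inflammasome pathway, NLRP7, NLRP11, NLRP2, CASP1 and PYCARD, out of 20046 genes with a probe on the array. The set was chosen by the comparison with the parent line in these same data, in which NLRP7 had a lower signal and NLRP11 a higher one in the drug-resistant lines than in the parent line, although both lie on the long arm of chromosome 19 at 19q13. For all 5 genes, differences from the parent line are therefore given as a description, with no test, and tests are given only between resistant lines. Every probe that the array's annotation assigns to a member was read, 10 probes in all, and 4 of the 5 members had a probe that passed the detection filter. NLRP2 had none.

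RNA of 6 lines was hybridised to 24 Illumina bead arrays. The parent was Ramos, an established human Burkitt lymphoma B cell line grown without drug. Dox100, Dox250, Dox500, Dox750 and Dox1000 were resistant lines that grew in 100, 250, 500, 750 and 1000 nM doxorubicin, a DNA-damaging topoisomerase poison, and each was raised from the line before it. All lines, Ramos included, grew in RPMI medium with fetal bovine serum, and the drug was present in the cultures of the resistant lines. The 4 arrays of a line held 4 cultures split from 1 culture, so a p-value measures the spread between such cultures and not between independently selected lines. The labels name only 1 line per drug concentration, so concentration, time in culture and the history of that line cannot be told apart.

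NLRP proteins are intracellular sensors built from a pyrin domain, a nucleotide-binding NACHT domain and leucine-rich repeats. Some of them recruit the adaptor ASC, the product of PYCARD, which in turn gathers pro-caspase-1, the product of CASP1, into an inflammasome, and active caspase-1 matures the cytokines IL-1 beta and IL-18 and cuts gasdermin D to open pores in the cell membrane. In the human, NLRP7 and NLRP2 are also known as maternal-effect genes of the egg and early embryo, and NLRP7 mutations cause recurrent hydatidiform mole, while NLRP11, which mice lack, has been reported to act with the lipopolysaccharide sensor caspase-4 in macrophages. Inflammasomes are best known from myeloid cells, and B cell lines are not their usual setting.

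The start regions are shown first because the results turn on genes of 1 cluster, of which NLRP11 and its immediate neighbour NLRP4 went up and NLRP7, farther away, went down. In the RefSeq annotation of GRCh38.p14, 61 genes lie between NLRP7 and NLRP11, none between NLRP7 and NLRP2, and none between NLRP11 and NLRP4. RefSeq places the starts of NLRP11 and NLRP4 on opposite strands 35 bases apart, and their 300-base windows (250 bases before the start and 50 after it) share 64 bases. The windows are chr19:55836526-55836825 on the minus strand for NLRP11 and chr19:55836290-55836589 on the plus strand for NLRP4, each printed 5′ to 3′ along its own gene, with the 64 shared bases in capitals.
NLRP11: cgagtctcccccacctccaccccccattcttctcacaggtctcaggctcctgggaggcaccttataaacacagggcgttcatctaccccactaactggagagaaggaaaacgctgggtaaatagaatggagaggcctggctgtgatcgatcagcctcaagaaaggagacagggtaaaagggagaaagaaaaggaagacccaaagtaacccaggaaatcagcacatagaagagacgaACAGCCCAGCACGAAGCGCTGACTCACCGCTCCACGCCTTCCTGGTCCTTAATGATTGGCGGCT
NLRP4: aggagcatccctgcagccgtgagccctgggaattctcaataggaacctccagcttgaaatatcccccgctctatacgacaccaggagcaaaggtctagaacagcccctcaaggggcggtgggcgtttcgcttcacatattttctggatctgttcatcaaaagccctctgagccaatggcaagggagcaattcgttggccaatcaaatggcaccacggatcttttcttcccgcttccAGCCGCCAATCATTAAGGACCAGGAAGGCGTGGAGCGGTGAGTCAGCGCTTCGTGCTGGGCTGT
The shared stretch holds 1 CCAAT motif, and the NLRP11 window holds 1 TATAAA motif upstream of it. Both motifs were searched on both strands, and TATAAA occurs in 11.5% and CCAAT in 34.6% of the 35114 RefSeq windows of this length. NLRP11 has a second RefSeq start 4576 bases away, chr19:55831950-55832249 on the minus strand, with 9 CG dinucleotides.

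The windows of NLRP7 (chr19:54947481-54947780, minus strand) and PYCARD (chr16:31202711-31203010, minus strand) are given with CG dinucleotides, the sites of DNA methylation, in capitals, because NLRP7 has fewer and PYCARD more of them than the median window.
NLRP7: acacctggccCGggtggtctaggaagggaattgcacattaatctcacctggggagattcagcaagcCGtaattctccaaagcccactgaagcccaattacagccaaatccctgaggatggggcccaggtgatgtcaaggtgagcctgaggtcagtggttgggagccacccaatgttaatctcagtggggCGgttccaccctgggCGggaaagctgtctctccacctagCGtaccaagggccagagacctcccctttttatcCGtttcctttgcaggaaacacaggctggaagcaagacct
PYCARD: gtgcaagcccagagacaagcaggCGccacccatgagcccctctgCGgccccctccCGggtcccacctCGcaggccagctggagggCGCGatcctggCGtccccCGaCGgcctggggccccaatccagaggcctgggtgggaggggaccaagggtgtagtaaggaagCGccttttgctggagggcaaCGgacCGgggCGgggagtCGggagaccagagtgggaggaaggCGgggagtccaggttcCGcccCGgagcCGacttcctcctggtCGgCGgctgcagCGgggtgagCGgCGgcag
NLRP7 has 6 CG dinucleotides and PYCARD 23, against a median of 14 over all windows, and the first NLRP11 window has 10. NLRP2 has 2 RefSeq windows with 12 CG dinucleotides each, 1090 bases apart and equal at 297 of 300 positions. The starts of NLRP7 and NLRP2 lie 17754 bases apart on opposite strands. DNA methylation was not measured, so the CG counts describe the sequence only. CASP1 and NLRP13 are named without a window.

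Per array the median unnormalized signal lay between 121.1 and 163.4, and 14158 to 15564 of 47323 probes had a detection p-value under 0.01, the limit for calling a probe detected. Arrays of a line correlated with r of 0.988 to 0.994. Values below are background-corrected, quantile-normalized signals on the log2 scale, which compare lines for 1 probe and not 1 probe with another. The B cell label held in its markers for 5 of the 6 on the array (CD79A, CD79B, MS4A1, CD22 and BLK were detected), while PAX5 was undetected on every array.

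NLRP7 was strongly expressed in Ramos and close to the detection limit in the resistant lines. With its brightest probe, the 4 Ramos arrays read 11.17, 11.14, 11.14 and 10.99, from unnormalized signals of 2243 to 2615. Dox100 read 6.91, 6.62, 7.02 and 6.58, Dox250 read 5.23, 5.80, 5.50 and 5.73, and Dox500 read 6.46, 6.32, 6.58 and 6.74. Dox750 read 5.84, 5.83, 5.85 and 5.60, and Dox1000 read 7.16, 6.78, 7.21 and 7.27. No resistant array came within 3 log2 units of a Ramos array. Relative to Ramos the signal was 4.33, 5.54, 4.59, 5.33 and 4.0 log2 units lower in Dox100, Dox250, Dox500, Dox750 and Dox1000 (SE 0.13 each, n = 4 against 4), which is between 16.1-fold and 46.7-fold. These sizes depend on the background correction, and without it the differences were -3.30, -3.74, -3.41, -3.68 and -3.14 log2 units. In a bulk measurement such as this one, fewer cells that express a gene and less RNA per cell cannot be told apart.

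The NLRP7 probe was detected on 4 of 4 arrays in Ramos, Dox100, Dox500 and Dox1000, on 2 of 4 in Dox250 and on 3 of 4 in Dox750. Ordered by mean signal, Ramos was highest, followed by Dox1000, Dox100 and Dox500, whose arrays overlapped from one neighbour to the next, and then by Dox750 and Dox250, which overlapped each other. The other 2 NLRP7 probes were also detected on every Ramos array, at 8.75 ± 0.29 and 9.36 ± 0.15 (SD, n = 4). In the resistant lines both were undetected, except for 1 Dox500 array, and their means of 4.61 to 5.32 set only an upper limit.

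Among the resistant lines NLRP7 changed at every step, in alternating directions. In limma, with Benjamini-Hochberg adjustment over all kept probes, it fell by 1.22 from Dox100 to Dox250 (adjusted p = 5.94e-07), went up by 0.96 at the next step, to Dox500 (adjusted p = 2.56e-05), fell by 0.75 to Dox750 (adjusted p = 0.00086) and rose by 1.33 to Dox1000 (adjusted p = 1.99e-07), all in log2 units with SE 0.13. Dox1000 minus Dox100 was 0.32 and did not pass (adjusted p = 0.0579), and it passed when Dox100 replicate 3 (0.40, adjusted p = 0.0296) or Dox1000 replicate 2 (0.43, adjusted p = 0.0140) was left out. The changes among resistant lines were small beside the distance to Ramos and took place near the detection limit. Without background correction the 4 steps were -0.44, 0.33, -0.27 and 0.54 and all passed. The dimmer probes give no size for these steps, since their signals in the resistant lines are upper limits.

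**Figure D1:**
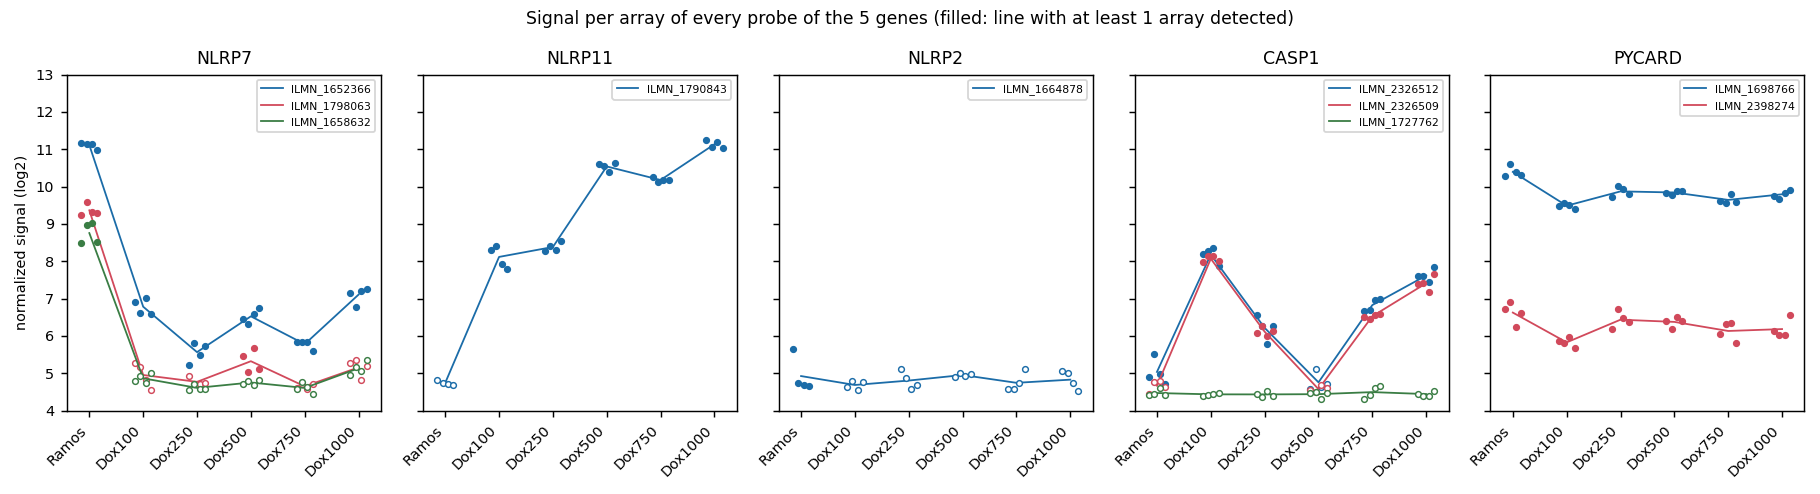
Normalized log2 signal (y axis) of all 10 probes of the 5 genes on each of 4 arrays per line (x axis), with lines through the means; open points mark lines in which the probe was undetected on all 4 arrays. NLRP7 was high in Ramos and low in the 5 resistant lines, NLRP11 ran the other way, NLRP2 stayed near background, and CASP1 reached its lowest mean in Dox500.

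NLRP11 showed the opposite layout. Its only probe was undetected on all 4 Ramos arrays, at 4.83, 4.74, 4.71 and 4.68, and detected on all 20 arrays of the resistant lines. Dox100 read 8.31, 8.42, 7.94 and 7.79, and Dox250 read 8.28, 8.40, 8.29 and 8.55. Those lines overlapped. Dox500 read 10.60, 10.54, 10.38 and 10.64, Dox750 read 10.25, 10.12, 10.17 and 10.16, and Dox1000 read 11.24, 11.07, 11.18 and 11.04. The arrays of these 3 lines did not overlap with each other or with the lines before them. Since Ramos has only a bound, the distance is given as a minimum, which was 5.86-fold for Dox100, 7.04-fold for Dox250, 31.4-fold for Dox500 and 24.4-fold for Dox750, and NLRP11 in Dox1000 stood at least 47.4-fold above Ramos. For such a minimum each Ramos array counts at its weakest detected probe, or at the NLRP11 signal where that is higher. These and all later minima hold for background-corrected signals only. Without that correction the fitted NLRP11 differences were smaller, at 1.47, 1.65, 3.46, 3.13 and 4.02 log2 units in the order of dose.

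Most of the later increase in NLRP11 fell between Dox250 and Dox500, where it rose by 2.16 ± 0.11 (SE) log2 units, or 4.46-fold (adjusted p = 5.61e-12 in the limma fit). From Dox100 to Dox250 the difference was 0.27 and did not pass (adjusted p = 0.104), though it passed at 0.37 without Dox100 replicate 2 (adjusted p = 0.0180). It rose by 0.96 from Dox750 to Dox1000 (adjusted p = 1.04e-06), and Dox1000 exceeded Dox100 by 3.02 (adjusted p = 1.19e-15), or 8.10-fold. The dip of -0.36 from Dox500 to Dox750 passed narrowly (adjusted p = 0.0376). It no longer passed when any array but Dox500 replicate 3 was left out, with adjusted p up to 0.0998.

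NLRP2, the neighbour of NLRP7, was not measurable. Its probe was detected on 1 of 24 arrays, Ramos replicate 1, at 5.64, and the other arrays read between 4.52 and 5.11. When the detection filter was dropped, NLRP2 passed in none of the 5 comparisons between resistant lines (adjusted p from 0.757 to 0.914 in limma, unadjusted p from 0.247 to 0.635). At this signal a difference in NLRP2 was not detectable, which does not show that it was absent.

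CASP1, the effector protease, was nearly undetected in Ramos, higher in 4 of the 5 resistant lines and undetected in Dox500. Its brightest probe read 4.91, 5.52, 4.99 and 4.72 in Ramos, with 1 array detected, and 8.20, 8.28, 8.36 and 7.88 in Dox100. Dox250 read 6.55, 6.27, 5.78 and 6.26, and Dox500 read 4.59, 5.12, 4.62 and 4.70 with no array detected. Dox750 read 6.66, 6.71, 6.96 and 6.98, and Dox1000 read 7.59, 7.60, 7.44 and 7.84. Dox100 was the highest line, Dox1000, Dox750 and Dox250 followed without overlap, and Dox500 and Ramos overlapped at the bottom. Relative to Ramos the CASP1 signal differed by 3.14, 1.18, -0.28, 1.79 and 2.58 log2 units in the order of dose (SE 0.17 each), and by 1.41, 0.37, -0.10, 0.62 and 1.05 without background correction.

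Between resistant lines CASP1 changed at each step. It fell by 1.96 ± 0.17 (SE) from Dox100 to Dox250 (adjusted p = 1.85e-08). Dox500 was at least 1.52-fold lower than Dox250 (adjusted p = 2.62e-06), and Dox750 was at least 2.33-fold higher than Dox500 (adjusted p = 4.04e-08), both as bounds because Dox500 was undetected. These p-values belong to the fitted limma differences of -1.46 and 2.07 and do not test the bounds. It rose by 0.79 from Dox750 to Dox1000 (adjusted p = 0.00167), and Dox1000 stayed below Dox100 by a log2 difference of -0.56 (adjusted p = 0.0122). A second CASP1 probe had the same direction at each of these steps, with differences of -1.95 at the first and 0.88 at the last step, bounds of at least 1.42-fold lower and at least 1.89-fold higher around Dox500, and -0.66 for Dox1000 minus Dox100. The remaining probe was undetected on all 24 arrays. Without background correction the brightest probe differed by -1.04, -0.47, 0.72 and 0.43 at the 4 steps, and each passed. CST3, on the list of myeloid markers, also had its lowest resistant mean in Dox500, and its line means were 4.92, 7.49, 7.57, 6.04, 6.73 and 7.33 from Ramos to Dox1000. CST3 fell by 1.53 at the step to Dox500 (adjusted p = 5.72e-07) and rose by 0.69 to Dox750 (adjusted p = 0.0101, limma). CD3E, on the list of T and NK markers, had means of 4.59, 5.95, 4.97, 4.68, 5.58 and 5.31, and it was detected on 4 arrays of Dox100, 2 of Dox750 and 1 of Dox1000. The other measured markers of these lists, ITGAM, CD68, SPI1, CD247, NKG7 and PRF1, did not have their lowest resistant mean in Dox500. CD68 and CD247 had their highest resistant mean there, at 8.34 and 5.76. The part of these markers in the CASP1 and CASP4 differences was not tested.

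PYCARD, the adaptor, was expressed in every line and was lower in every resistant line than in Ramos. Ramos read 10.27, 10.61, 10.39 and 10.30, Dox100 read 9.47, 9.56, 9.52 and 9.39, and Dox250 read 9.73, 10.03, 9.94 and 9.79. Dox500 read 9.83, 9.78, 9.87 and 9.88, Dox750 read 9.61, 9.56, 9.81 and 9.59, and Dox1000 read 9.76, 9.68, 9.83 and 9.90. With this brighter probe all Ramos arrays lay above all 20 resistant arrays, and Dox100 was the lowest line, overlapping only with Dox750. Relative to Ramos the PYCARD signal differed by -0.91, -0.52, -0.55, -0.75 and -0.60 log2 units in the order of dose (SE 0.08), or 1.44-fold to 1.87-fold lower. The dimmer of its 2 probes had the same sign throughout, with -0.80 in Dox100, -0.19 in Dox250, -0.25 in Dox500, -0.49 in Dox750 and -0.44 in Dox1000. With the dimmer probe, Ramos arrays overlapped with those of every resistant line but Dox100.

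PYCARD partly recovered after Dox100. It rose by 0.38 from Dox100 to Dox250 (adjusted p = 0.0036), the later steps of -0.03, -0.20 and 0.15 did not pass (adjusted p = 0.856, 0.146 and 0.212), and Dox1000 stood 0.31 above Dox100 (adjusted p = 0.00632). Both of these calls were lost when arrays were scaled to a common median in place of quantile normalization, at 0.27 (adjusted p = 0.0572) and 0.18 (adjusted p = 0.154). In the limma fit the dimmer probe rose by 0.61 from Dox100 to Dox250 (adjusted p = 0.00956). Its difference of 0.36 between Dox1000 and Dox100 did not pass (adjusted p = 0.0705).

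**Figure D2:**
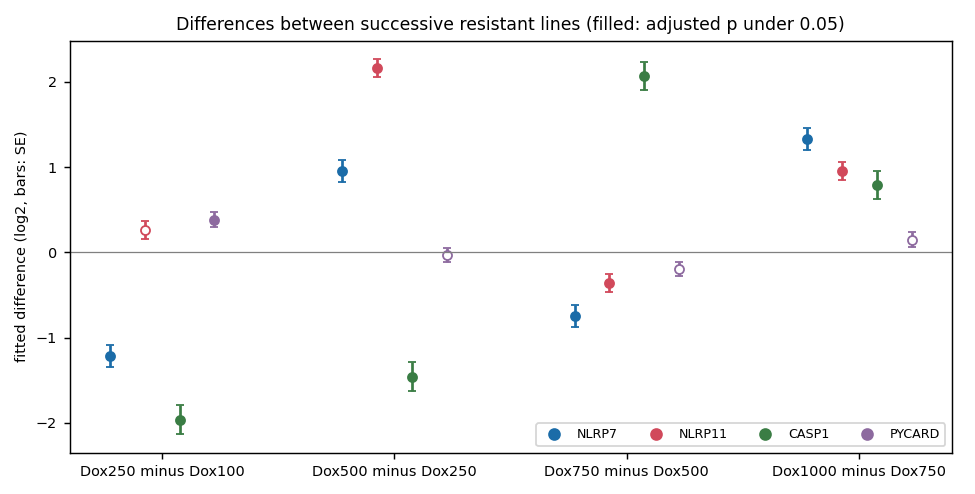
Fitted log2 difference between each resistant line and the one before it (y axis, points with SE bars) for the brightest probe of 4 genes, filled where the adjusted p was under 0.05. NLRP7 changed sign at each step, NLRP11 rose by 2.16 from Dox250 to Dox500 while CASP1 had a difference of -1.46, and PYCARD stayed within 0.38 of 0; the CASP1 points that involve Dox500 rest on an undetected line.

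Many other genes passed in the same comparisons. Against Ramos, 46.3%, 49.4%, 48.4%, 52.7% and 57.3% of 9533 measured genes passed in Dox100, Dox250, Dox500, Dox750 and Dox1000, and the arrays of 40.3%, 44.3%, 44.7%, 47.8% and 50.2% did not overlap with Ramos. In Dox1000 27.6% of genes passed as higher and 29.7% as lower. From line to line 13.5%, 14.7%, 7.99% and 23.7% passed and the arrays of 16.2%, 21%, 17.9% and 26.7% did not overlap. For Dox1000 against Dox100 the shares were 37.8% and 33.4%. In each of those 5 comparisons among resistant lines 3 of the 4 measured members passed. Successive comparisons share a line, so a line that is high raises one difference and lowers the next.

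The nearest match to NLRP11 across the 24 arrays was its head-to-head neighbour. Among 1466 genes whose line means spanned at least 1 log2 unit, NLRP4 had the highest correlation with NLRP11 (r = 0.988), followed by FGR (0.979), a SRC-family kinase, and ZG16B (0.971), a secreted lectin. FGR and ZG16B lie on chromosomes 1 and 16. These r values describe 24 arrays that fall into 6 lines and share their normalization. They include the Ramos arrays, by which NLRP11 was chosen and on which NLRP11 and NLRP4 were undetected. The r values are therefore a description, and a shared control of NLRP11 and NLRP4 was not tested. NLRP4, reported in human cells to promote degradation of the kinase TBK1, read 4.60, 4.62, 4.70 and 5.07 in Ramos with no array detected. Dox100 read 6.7, 6.77, 6.60 and 6.83, Dox250 read 6.90, 7.17, 7.07 and 7.01, and Dox500 read 8.89, 8.67, 8.87 and 8.96. Dox750 read 8.80, 8.69, 8.86 and 8.73, and Dox1000 read 9.38, 9.18, 9.20 and 9.46. As for NLRP11, Ramos lay lowest and the arrays of Dox500, Dox750 and Dox1000 lay above those of Dox100 and Dox250, but for NLRP4 Dox500 and Dox750 overlapped.

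The NLRP4 probe was undetected in Ramos and passed the detection filter only through resistant lines. Its differences from Ramos are therefore a description, with no test. NLRP4 was at least 2.23-fold higher than Ramos in Dox100, 2.78-fold in Dox250, 9.72-fold in Dox500, 9.22-fold in Dox750 and 13.4-fold in Dox1000, each as a bound. Between Dox250 and Dox500 NLRP4 rose by 1.81 (adjusted p = 2.78e-11 in limma), beside 2.16 for NLRP11. It also rose by 0.31 from Dox100 to Dox250 (adjusted p = 0.0392) and by 0.53 from Dox750 to Dox1000 (adjusted p = 0.000447), and the difference of -0.08 from Dox500 to Dox750 did not pass (adjusted p = 0.68).

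NLRP13 and NLRP8 follow NLRP4 in gene order. NLRP13 was undetected in Ramos, Dox100, Dox250 and Dox500, was detected on 1 of 4 arrays in Dox750 (5.77, 5.02, 4.96 and 5.27) and on all 4 in Dox1000 (6.52, 6.53, 6.57 and 6.57). Its probe passed the detection filter only through Dox1000, so its differences are a description, with no test. NLRP13 was at least 1.98-fold higher in Dox1000 than in Ramos. It rose by 1.29 from Dox750 to Dox1000. NLRP8 went the other way. Its brighter probe ran from 11.03 to 11.38 in Ramos and from 9.83 to 10.58 over the resistant lines. The falls were 1.01, 0.92, 0.78, 1.14 and 0.99 in the order of dose (adjusted p = 2.46e-07, 9.29e-07, 9.32e-06, 3.06e-08 and 2.54e-07 in limma). The other NLRP8 probe was undetected on all 24 arrays. The other 9 of the 14 NLRP genes on the array, NLRP1, NLRP2, NLRP3, NLRP5, NLRP6, NLRP9, NLRP10, NLRP12 and NLRP14, were each detected on at most 1 array and were not measured.

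**Figure D3:**
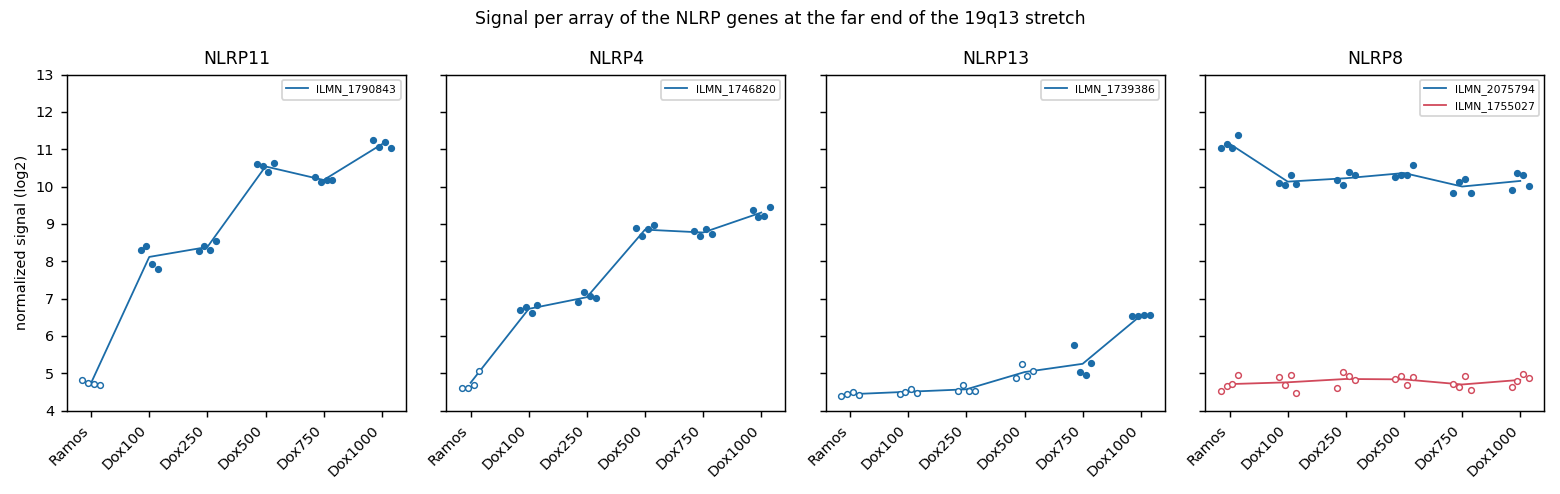
Normalized log2 signal (y axis) of NLRP11, NLRP4, NLRP13 and NLRP8 on 4 arrays of each line (x axis), in gene order; open points mark lines in which the probe was undetected. NLRP11 and NLRP4 went up from Ramos with their largest later step at Dox500, NLRP13 came into detection at Dox750 and Dox1000, and the brighter NLRP8 probe went down from Ramos.

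The stretch of 19q13 from NLRP12 to NLRP5 held 136 RefSeq genes, of which 87 had a probe and 43 were measured. In Dox1000 against Ramos 8 of the 43 rose and 17 fell, with a median difference of -0.09 against -0.02 over all genes, so 25 of 43 passed beside 57.3% of all genes. Leaving out the NLRP genes, 5 of 38 rose and 15 fell. Genes that rose in the whole stretch include NLRP11, NLRP4, NLRP13 and DNAAF3, whose probes passed the detection filter only through resistant lines. These counts are therefore a description. Of the 23 measured genes between NLRP7 and NLRP11, DNAAF3 had the largest difference. DNAAF3, an assembly factor for the dynein arms of cilia, read 5.60, 4.91, 5.34 and 5.05 in Ramos with 1 array detected and 9.01, 8.97, 9.03 and 9.13 in Dox1000, and it rose by 2.63, 3.67, 3.55, 3.84 and 3.81 in the order of dose. Unlike NLRP11 it had its later step between Dox100 and Dox250, where it rose by 1.04 (adjusted p = 5.22e-06), and did not pass from Dox250 to Dox500 (-0.12, adjusted p = 0.59).

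Besides the NLRP genes and DNAAF3, LILRA2, a leukocyte immunoglobulin-like receptor, rose by 1.38 in Dox1000, CCDC106 by 0.82 and ZNF581 by 0.64. ZNF580 fell by 1.57, ISOC2 by 1.23, TMEM86B by 1.08, CNOT3 by 0.81, PPP6R1 by 0.80, LENG8 by 0.71, ZNF579 by 0.69, PRPF31 by 0.63, HSPBP1 by 0.60, TFPT by 0.59 and U2AF2 by 0.57. RPL28 rose and LILRB3, LILRB1, RDH13 and PPP1R12C fell by less than 0.5. The other 18 measured genes, MYADM, NDUFA3, LENG1, MBOAT7, TSEN34, RPS9, LILRB2, LAIR1, BRSK1, TMEM238, UBE2S, ZNF628, NAT14, FIZ1, ZNF524, ZNF784, EPN1 and RFPL4A, did not pass. ZNF580 and DNAAF3 were the only genes of the stretch other than NLRP genes that differed from Ramos by more than 1 log2 unit in each of the 5 lines.

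**Figure D4:**
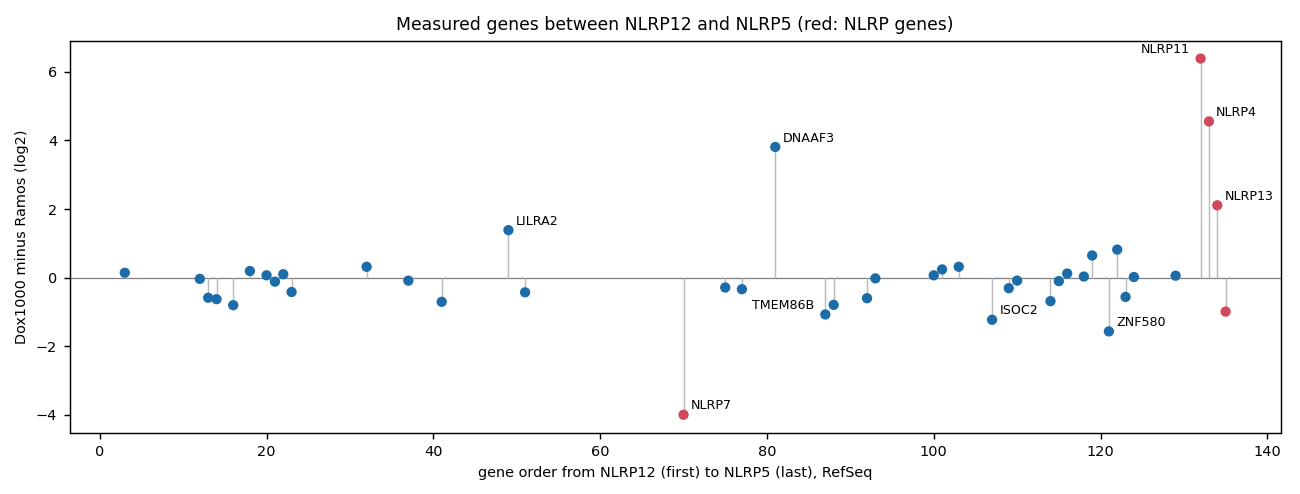
Fitted log2 difference between Dox1000 and Ramos (y axis) of the 43 measured genes from NLRP12 to NLRP5, placed by gene order (x axis), with NLRP genes in red. NLRP7 lies at -4.0, DNAAF3 at 3.81 and NLRP11 at 6.39, while most genes between them lie within 1 of 0; the values of NLRP11, NLRP4 and NLRP13 depend on the offset, since Ramos was undetected.

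The other inflammasome genes were read by role. Apart from the members, 41 of 79 listed genes were measured, and in Dox1000 against Ramos 12 rose and 15 fell, with a median difference of 0.01. That share, 27 of 41, stands beside 57.3% of all genes. Of the genes counted as risen, NLRP4, NLRP13, IL1B, IL1RN, PYHIN1 and NOD1 passed the detection filter only through resistant lines. AIM2 and NEK7, counted as fallen, passed it only through Ramos. The counts are therefore a description, with no test. Among the inflammatory caspases, CASP4, the lipopolysaccharide sensor, lies 3 RefSeq genes from CASP1 on chromosome 11. Its detected probe read 7.06, 7.0, 6.47 and 7.13 in Ramos, 9.25, 9.35, 9.03 and 9.17 in Dox100, and 9.11, 8.99, 9.02 and 8.97 in Dox250. Dox500 read 8.10, 7.95, 8.04 and 8.02, Dox750 read 8.92, 8.92, 8.86 and 8.88, and Dox1000 read 8.98, 9.20, 9.07 and 9.21. As with CASP1, Dox500 was the lowest resistant line, but unlike CASP1 it stayed above all Ramos arrays. CASP4 rose by 2.29, 2.11, 1.11, 1.98 and 2.20 against Ramos, dropped by 0.99 at the step to Dox500 (adjusted p = 7.41e-07) and rose by 0.87 to Dox750 (adjusted p = 1.13e-05, limma), while 2 dimmer CASP4 probes were undetected on all 24 arrays. CASP5, between them, was undetected on all 24 arrays.

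Among 7 measured output genes, which are cytokines, an alarmin, gasdermins and a membrane-rupture factor, IL1B and NINJ1 rose in Dox1000 and 4 fell. Of all genes 57.3% passed in that comparison. IL1B, the pro-form of interleukin-1 beta, was undetected in Ramos (4.41, 4.58, 4.45 and 4.61) and detected on all resistant arrays. Its probe passed the detection filter only through resistant lines, so its differences from Ramos are a description, with no test. Dox100 read 7.49, 7.19, 7.17 and 7.24, Dox500 read 6.64, 6.75, 6.59 and 6.62, and Dox1000 read 8.37, 8.57, 8.62 and 8.69. IL1B was at least 3.26-fold, 2.08-fold, 2.12-fold, 3.75-fold and 7.99-fold higher than Ramos in the order of dose, and Dox1000 was the highest line, 1.09 above Dox750 (adjusted p = 1.86e-07). In Dox500, where CASP1 was undetected, IL1B was still detected on 4 of 4 arrays. NINJ1, which ruptures the plasma membrane late in lytic death, rose by 2.14, 2.35, 2.09, 2.25 and 2.49.

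IL18 and GSDMD, whose products are cut by caspase-1, fell in every resistant line. IL18 fell by 0.56, 0.55, 0.34, 0.60 and 0.39, and GSDMD, the pore former, by 0.96, 0.92, 1.03, 0.82 and 0.51 in the order of dose, each of the 10 with an adjusted p under 0.05 in limma. HMGB1, an alarmin, fell by 0.93, 0.96, 0.64, 0.52 and 0.71, and GSDME, a gasdermin cut by caspase-3, fell by 0.57, 0.55, 1.04, 1.0 and 0.29, least in Dox1000. GSDMB did not pass in Dox1000.

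Of 7 other sensors measured, 3 rose and 1 fell in Dox1000, where 57.3% of all genes passed. PYHIN1 and IFI16, DNA-binding proteins of the AIM2 family, rose by 1.60 and 0.52, and NOD1, a peptidoglycan sensor, by 1.09. PYHIN1 was detected on 2 and NOD1 on 1 of 4 Ramos arrays. Both passed the detection filter only through resistant lines, so their rises are a description only. AIM2, a sensor of cytosolic DNA, fell by 0.67 (adjusted p = 0.0279 in limma), detected on 1 of 4 arrays, and no longer passed without the detection filter (adjusted p = 0.0732). The AIM2 probe passed that filter only through Ramos, so its fall is a description only. Among 6 adaptors and caspases, PYCARD included, RIPK3, the necroptosis kinase, fell by 0.73 and RIPK2, the NOD1 adaptor, rose by 0.27 (adjusted p = 0.0074). The RIPK2 call was lost under median scaling (0.13, adjusted p = 0.282).

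Among 6 decoys and brakes, IL1RN, the interleukin-1 receptor antagonist, was undetected in Ramos, and Dox1000 stood at least 3.05-fold above it. IL1RN passed the detection filter only through resistant lines, so this is a description, with no test. IL18BP, which neutralizes IL-18, rose by 0.95. SERPINB1, an inhibitor of inflammatory caspases and neutrophil proteases, fell by 1.89, 2.06, 1.69, 1.78 and 1.17 in the order of dose, and DPP9, which restrains NLRP1 and CARD8, fell by 0.76 in Dox1000. Of 9 licensing genes 2, 2, 4, 4 and 1 rose and 2, 2, 2, 2 and 4 fell against Ramos in the order of dose. Beside them, 46.3%, 49.4%, 48.4%, 52.7% and 57.3% of all genes passed. In Dox1000 the 1 that rose was TXNIP (1.30), a thioredoxin-binding protein linked to NLRP3 activation, and SYK (-0.67), HSP90AA1 (-0.61) and SUGT1 (-0.57) fell. NEK7 was also counted as lower, but its probe was undetected in Dox1000 and passed the detection filter only through Ramos, on 3 of 4 arrays. The NEK7 means of 5.75 in Ramos and 5.22 in Dox1000 lay near the detection limit, so its fall is a description only. Of 4 receptor-side genes IRAK1 fell by 0.31. Of the maternal complex to which NLRP7 and NLRP2 are related only NLRP7 and ZBED3 were measured. ZBED3 differed from Ramos by -0.66, -0.47, -0.35, -0.65 and -0.48 in the order of dose. It passed in Dox100 and Dox750 and did not pass in the other lines, with an adjusted p of 0.0634 in Dox1000 (limma).

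**Figure D5:**
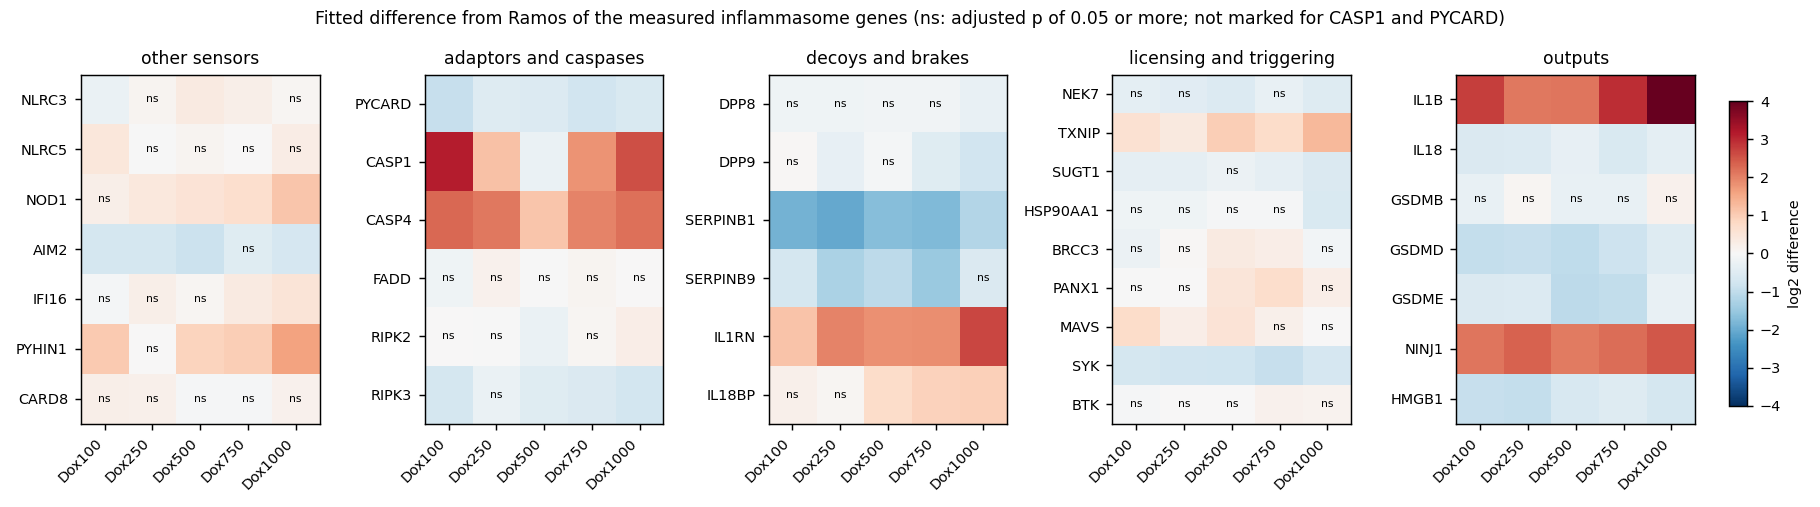
Fitted log2 difference from Ramos (colour, red higher and blue lower, with the scale ending at 4) of the measured inflammasome genes by role in the 5 resistant lines (columns), with ns where the adjusted p was 0.05 or more, not marked for CASP1 and PYCARD. CASP1, CASP4, IL1B, IL1RN and NINJ1 stand out in red and SERPINB1 in blue, and the paler CASP1 and CASP4 cells fall in Dox500.

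Of the 9 genes whose pattern over the 24 arrays was most like NLRP7, CASP1 or PYCARD, 8 lay on a chromosome other than that of the member, RCN1 being the exception. For NLRP7 they were KRCC1 (r = 0.979), DYNLT2B (0.976), a dynein light chain, and DET1 (0.967), a ubiquitin ligase component. KRCC1 had line means of 8.82, 7.53, 6.88, 7.20, 6.86 and 7.41 from Ramos to Dox1000, with Dox250 and Dox750 lowest, as for NLRP7. For CASP1 they were RCN1 (0.931), a calcium-binding protein of the endoplasmic reticulum, SAMD9L (0.931), an interferon-induced gene, and CHI3L2 (0.930). CHI3L2 had line means of 6.01, 7.76, 7.08, 5.28, 7.05 and 7.69, lowest in Dox500. For PYCARD, among 1467 genes, they were SAV1 (0.930), a Hippo pathway adaptor, MED30 (0.907), a Mediator subunit, and SLC66A3 (0.877).

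Markers of other cells were read because inflammasome genes are abundant in myeloid cells. Sums of marker signals, and the range of DCN below, are on the linear and not the log2 scale. Of 12 myeloid markers 4 were measured (ITGAM, CST3, CD68 and SPI1), and their summed signal was 1545 to 1625 in Ramos and 1176 to 1307 in Dox1000. CD14 and LYZ were detected on at most 1 array and CSF1R, S100A8, S100A9, MPO, FCER1G and TYROBP on none. CST3 was at least 3.41-fold and ITGAM at least 1.15-fold higher in Dox1000 than in Ramos, where both were undetected. The myeloid sum was 1416 to 1602 in Dox100, 1198 to 1494 in Dox250, 1216 to 1556 in Dox500 and 1252 to 1361 in Dox750, and SPI1, which B cells also express, was the brightest of its probes. The summed signal of the 4 measured of 8 T and NK markers (CD3E, CD247, NKG7 and PRF1) ran from 117 to 140 in Ramos, 182 to 198 in Dox100, 146 to 212 in Dox250, 232 to 252 in Dox500, 215 to 317 in Dox750 and 241 to 296 in Dox1000. CD3D and GZMA were undetected on all arrays, and CD2 and CD3G were detected on 5 and 2 arrays. Neither PRF1 nor NKG7 was detected in Ramos, and in Dox1000 PRF1 stood at least 2.33-fold above it. For NKG7 that minimum was 1.84-fold, while CD247 was undetected in Dox1000 and detected on 3 Ramos arrays with its brightest probe. DCN, the only one of 8 epithelial and stromal markers measured, was undetected in Ramos, at 23.6 to 24.1, and ran from 152 to 190 in Dox1000. As a minimum it stood 1.90 log2 units above Ramos in Dox1000. DAZL and ZP3, the measured ones of 8 germ cell and trophoblast markers, summed to 119 to 154 in Ramos, where DAZL was undetected, and 173 to 203 in Dox1000. The part of these markers in the NLRP11, CASP1 or IL1B differences was not tested.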

How the data were processed

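RNA from 24 cultures, 4 of each of 6 lines, was measured on Illumina bead arrays. Per the file headers, the authors deposited raw intensity per probe (bead signals without background correction or normalization) and a detection p-value beside it. The log2 values in the deposited table equalled log2 of quantile-normalized signals without background correction within 5e-09. Per the submitters' processing notes, lumi is listed with neither role nor version, and the genome build is not given in the sources used here.

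Here, background was corrected with limma's nec from the detection p-values (offset 16), followed by quantile normalization and log2. A probe was kept with a detection p under 0.01 on at least 3 of the 4 arrays in any line. This retained 15765 of 47323 probes (33.3%) and 9533 genes. Array symbols were updated by Entrez identifier through RefSeq, and the brightest kept probe stood for a gene. One fit in limma 3.58.1 (R 4.3.3), on all 24 arrays with 1 mean for each line and 18 residual degrees of freedom, gave 10 comparisons, and p-values were adjusted by Benjamini-Hochberg over all kept probes. Genes passed at an adjusted p under 0.05. A gene with all probes undetected on every array of a line got only a bound there (lowest detected signals were 5.46 to 5.73 on the log2 scale). Promoter windows came from RefSeq for GRCh38.p14. The procedure was tested on simulated data. Members and lists were chosen with earlier results of these data known. Besides the members, all measured NLRP genes and 19q13 neighbours were named, up to 4 passing genes of each pathway list with the largest change in Dox1000, and the 3 genes most like each member; GSDME, GSDMB, NEK7, CASP5 and the cell type markers were named after their values were seen. Replicate numbers did not pair the arrays: deviations of same-numbered arrays correlated with r of -0.24 to 0.18. Precision is limited by 4 split cultures per line.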

Additional observations from a re-analysis of the deposited data

Results flagged for a closer look

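Of 60 groups of 4 arrays, 1 for each probe of the 5 genes and each line, 4 held an array set apart from the other 3 by Dixon's criterion, where chance alone flags about 1 in 20. Ramos replicate 1 read 5.64 for NLRP2, the only array on which that gene was detected, while the other Ramos arrays read below 5. Dox750 replicate 4 read 5.60 for the brightest NLRP7 probe, below the other 3 arrays of that line at 5.83 to 5.85. For the dimmer NLRP7 probes, both undetected in Dox250, replicate 2 read 4.71 with one and replicate 1 read 4.91 with the other. No array was set apart for NLRP11, CASP1 or PYCARD.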

How the results depend on the processing

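Of 361 values of the members under other processing, 331 were counted as the same. They stayed on their side of the threshold or, for NLRP7 and NLRP11 against Ramos, moved by less than the spread between replicates. No value that passed under either processing changed sign, and a change of sign where neither passed was not counted. The tally holds the deposited log2 values and those without background correction, which are equal, and CASP1 and PYCARD against Ramos, for which no test is given. Without background correction, which equals the deposited log2 values, NLRP7 differed from Ramos by -3.30, -3.74, -3.41, -3.68 and -3.14 in the order of dose and NLRP11 by 1.47, 1.65, 3.46, 3.13 and 4.02, so the size of both differences depends on the background step. Averaged over its probes, NLRP7 differed from Ramos by -4.76 in Dox250, -4.21 in Dox500 and -4.73 in Dox750, and Dox1000 minus Dox100 passed at 0.27 (adjusted p = 0.0127). The NLRP11 difference between Dox750 and Dox500 did not pass with median scaling (-0.33, adjusted p = 0.109) or without the detection filter (-0.36, adjusted p = 0.107), in 7 of 8 fits without 1 array (-0.42 to -0.33), or at a limit of 0.01, where the CASP1 difference of -0.56 between Dox1000 and Dox100 (adjusted p = 0.0122) and AIM2 in Dox1000 also did not pass. AIM2 did not pass without the filter either (adjusted p = 0.0732). Under median scaling the median of all genes shifted to -0.03, -0.13, -0.14, -0.11 and -0.13 against Ramos, and PYCARD no longer passed in Dox250 (0.27) or Dox1000 (0.18) against Dox100, nor RIPK2 against Ramos (0.13). Leaving out 1 array gave 0.26 to 0.43 for NLRP7 in Dox1000 against Dox100 and 0.16 to 0.37 for NLRP11 in Dox250 against Dox100. With only probes detected on all 24 arrays, 5 pathway genes and 3 genes of the 19q13 stretch were higher in Dox1000 in place of 12 and 8, as fewer genes were tested, and PYCARD alone of the members remained. The replicate number as a block changed no call of a member; with it NLRP11 rose by 2.16 from Dox250 to Dox500. It hints at no pairing, since 7 of 24 arrays correlated best with their own number. Limits are the 4 cultures split from 1 culture, 1 line per drug concentration, and signals near background, where a difference can be missed and fold changes are compressed.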
